A study of Mus musculus with 4 samples.

Results

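The genes described here are 33 interferon-induced and MHC class I genes, taken by symbol from the 32285 genes of the count tables and followed through each cell class and library of hindlimb muscle. By role they comprise the MHC class I chains (H2-K1, H2-D1 and B2m), peptide transport and loading (Tap1, Tap2 and Tapbp), the inducible proteasome and its activator (Psmb8, Psmb9, Psmb10, Psme1 and Psme2), interferon signalling and transcription factors (Stat2, Irf1, Irf7, Irf9, Nlrc5 and Usp18), 12 type I interferon effectors (Ifit1, Ifit2, Ifit3, Isg15, Rsad2, Oasl2, Rtp4, Xaf1, Ifih1, Ifi35, Ifi27l2a and Bst2), the membrane restriction factors Ifitm2 and Ifitm3, and the guanylate-binding proteins Gbp2 and Gbp3. All 33 had a row in the tables. Cells came from the tibialis anterior and gastrocnemius of males aged 2 months, and each genotype was 1 pool of 4 mice. All mice carried S100GFPtg, a GFP transgene driven by the S100B promoter, and were either otherwise wild type (WT) or Sod1-/- (Sod1KO). Propidium iodide-negative cells of each pool were sorted into GFP+ and GFP- fractions, and each fraction gave 1 droplet library, so there were 4 libraries and 1 per group. The 2 sorts of a genotype share their pool of mice and are no replicates of each other, and no difference below has a replicate check.

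Interferons signal through cell-surface receptors and Janus kinases to transcription factors, STAT2 and IRF9 among them, that act at interferon-stimulated response elements, while interferon gamma acts mainly through gamma-activated sites. The induced genes include effectors that block virus entry, translation or budding, and the machinery that cuts cytosolic proteins, carries the peptides into the endoplasmic reticulum and loads them on MHC class I molecules. Many cell types, the vascular endothelium among them, transcribe part of this programme without infection.

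Promoter sequence is shown first because one short motif is shared by many of the members. RefSeq promoter windows on GRCm38.p6, of 250 bases before to 50 bases after the transcription start, were found for 28 of the 33 members. The core of the interferon-stimulated response element is GAAA and GAAA with any 2 bases between them, on either strand. Counted per gene, it was present in 13 of 28 members (46.4%) and in 3.99% of the 27018 genes with a window. The 13 were B2m, Psme1, Stat2, Ifit1, Ifit3, Isg15, Rsad2, Ifih1, Bst2, Ifitm2, Ifitm3, Gbp2 and Gbp3. The gamma-activated site TTCNNNGAA, which is its own reverse complement, was present in 6 of 28 (21.4%), namely Psmb8, Irf1, Ifit2, Ifi35, Bst2 and Ifitm3. It was present in 9.55% of the genes with a window. In Bst2 the matches of the 2 motifs share bases, and only the former are in capitals below. A match is a description of letters, not a shown binding site. Stretches around the matches are printed below in the direction of transcription, with the letters of the matches to the response element in capitals, and in Irf1 those to the gamma-activated site: an Ifit pair with 2 matches each, Isg15, Bst2 and Gbp3 with overlapping matches, B2m as an MHC class I chain, and Irf1 with the gamma-activated site.
Ifit1, chr19:34640770-34640828, plus strand: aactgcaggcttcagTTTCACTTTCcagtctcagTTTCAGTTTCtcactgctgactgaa
Ifit3, chr19:34583358-34583431, plus strand: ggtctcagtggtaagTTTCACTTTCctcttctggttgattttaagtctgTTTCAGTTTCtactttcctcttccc
Isg15, chr4:156200860-156200911, minus strand: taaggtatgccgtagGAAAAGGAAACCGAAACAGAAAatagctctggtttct
Bst2, chr8:71537572-71537617, minus strand: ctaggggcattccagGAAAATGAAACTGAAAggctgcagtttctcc
Gbp3, chr3:142559984-142560029, plus strand: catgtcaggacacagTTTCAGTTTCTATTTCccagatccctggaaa
B2m, chr2:122147533-122147572, plus strand: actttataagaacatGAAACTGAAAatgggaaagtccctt
Irf1, chr11:53769909-53769947, plus strand: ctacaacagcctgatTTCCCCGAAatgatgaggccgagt
In Ifit1 the printed stretch runs from base −119 to base −61 relative to the start, and in Ifit3 from −171 to −98. In Isg15, 3 matches overlap in a single run from base −78 on. Of the 33 members, 7 lie on chromosome 17 (H2-K1, H2-D1, Tap1, Tap2, Tapbp, Psmb8 and Psmb9). The starts of Tap1 (17, 34187556 to 34197225) and Psmb9 (17, 34182030 to 34187330) are 226 bases apart, so that their promoter windows share 275 bases. Rtp4 is the 1 member on chromosome 16 with Sod1, at a distance of 66.7 Mb.

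After filtering, 17263 cells of 21415 barcodes remained, between 1638 (WT GFP-) and 5925 (Sod1KO GFP+) per library, with 21959719 to 105954116 UMIs per library as deposited and medians of 8020 to 14691 UMIs per cell. Pairs of libraries shared 1 to 13 barcodes. Clusters were formed without the members and the other interferon genes, and were named only from fixed marker lists, as "X-like". Clusters left unnamed held 22.1% to 23.99% of the GFP+ cells and 34.4% to 50.4% of the GFP- cells. Sod1 itself was still counted in the libraries labelled Sod1KO, at 98.5 CPM against 90.9 in WT for GFP+ and at 113 against 124 for GFP-. These are tags from the 3′ end, and which part of the gene the allele lacks was not stated in the sources used, so they check nothing, and the genotype below is that of the library's label. Macrophage-like cells carried all 10 macrophage markers, and the tSC-like cells (terminal and other nonmyelinating Schwann cells) were absent from the GFP- sort, with 0 and 7 cells. A level is given as CPM, the UMIs of a gene per 1000000 UMIs of all cells of a class in 1 library, with 95% Poisson limits in parentheses. A genotype difference is the log2 ratio of the CPM, Sod1KO-labelled library over WT, with a conditional binomial 95% interval. Every interval covers counting error only.

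Endothelial-like cells carried the highest levels of most members in all 4 libraries. They ranked first for 23 of 33 members among the 7 classes of WT GFP+, for 26 in Sod1KO GFP+, for 30 in WT GFP- and for 22 in Sod1KO GFP-. The classes ranked differed between libraries, so these counts are not comparable with each other. In WT GFP- only endothelial-like, mesenchymal-like and pericyte-like cells could be ranked, without macrophage-like or tSC-like cells. Summed over the 33 members, the level of endothelial-like cells was 12807, 11476, 12042 and 11905 CPM in the same order of libraries. Macrophage-like cells followed with 7840 CPM in WT GFP+, 8093 in Sod1KO GFP+ and 8804 in Sod1KO GFP-. Myelinating Schwann (mSC-like) cells lay at the other end, with 1841 CPM (WT) and 1488 CPM (Sod1KO), and tSC-like cells lay between, with 4176 and 3070 CPM. The order was the same in both genotypes for these 4 classes.

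**Figure D1:**
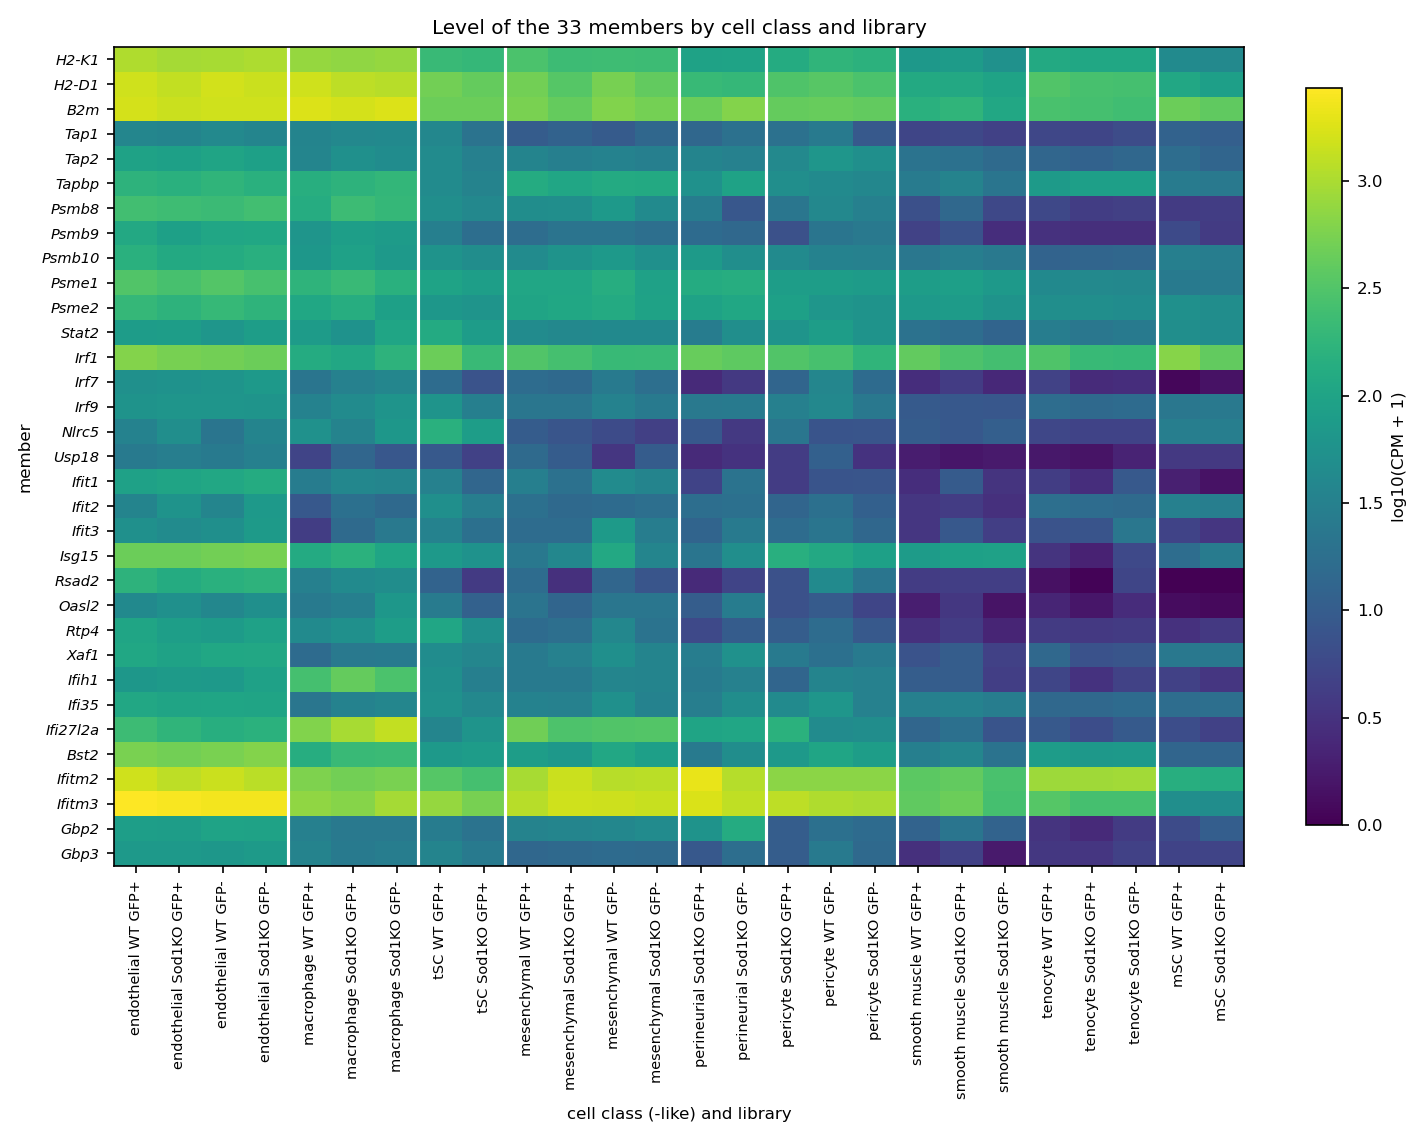
Level of each of the 33 members (rows) in each cell class and library with enough cells (columns), drawn as log10 of CPM plus 1. The endothelial-like columns are the brightest for most rows, the mSC-like columns are among the darkest, and Irf1 is lowest in macrophage-like cells wherever that class was measured.

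The classical MHC class I chains separated these classes widely. H2-K1, a heavy chain, stood at 1045, 942, 968 and 1032 CPM in endothelial-like cells of WT GFP+, Sod1KO GFP+, WT GFP- and Sod1KO GFP-, at 771 and 726 in macrophage-like cells of the GFP+ libraries, at 209 and 195 in tSC-like cells and at 43.5 (38.8 to 48.7) and 40.2 (34.5 to 46.6) in mSC-like cells. The Poisson limits of these 4 classes did not overlap. B2m, the light chain that every class I heavy chain needs, followed another order. It was highest in macrophage-like cells, at 1802 and 1649 CPM in the GFP+ libraries, and in mSC-like cells of WT GFP+ it stood at 454 (438 to 470), within the counting limits of tSC-like cells at 460 (443 to 477). The mSC-like and tSC-like cells of WT GFP+ were thus alike in the light chain and far apart in the heavy chain.

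The genes of antigen processing were highest in endothelial-like or macrophage-like cells, except Tap1 in WT GFP+, which was highest in tSC-like cells. In both Sod1KO-labelled libraries Tap1 and Tapbp were highest in macrophage-like cells. Tap1, a chain of the peptide transporter, stood at 37.3 CPM (32.7 to 42.5) in tSC-like cells of WT GFP+, beside 37.2 (31.0 to 44.2) in endothelial-like and 34.2 (27.3 to 42.4) in macrophage-like cells, 3 levels that counting error does not separate. In mSC-like cells of the same library Tap1 was at 10.9 (8.64 to 13.7). Tapbp, which tethers empty class I molecules to the transporter, ranged from 143 to 190 CPM over macrophage-like cells and from 149 to 175 over endothelial-like cells of all libraries with these classes, and stood at 44.1 and 33.9 in tSC-like and 25.6 and 23.8 in mSC-like cells. Psmb8 and Psmb9, inducible catalytic subunits of the proteasome, reached 217 to 251 and 89.5 to 119 CPM in endothelial-like cells. In mSC-like cells they were at 2.99 and 3.18 CPM for Psmb8 and at 4.98 and 2.95 CPM for Psmb9.

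Because each inducible subunit takes the place of a constitutive one, the 3 pairs were also set against each other within a class. UMIs of 3′ tags were not scaled for length, so the ratio is read across classes and not as a share of proteasomes. For Psmb8 over Psmb5 the ratio was 2.00, 1.81, 1.79 and 2.07 in endothelial-like cells of WT GFP+, Sod1KO GFP+, WT GFP- and Sod1KO GFP-. Macrophage-like cells gave 1.36 in WT GFP+, 2.10 in Sod1KO GFP+ and 3.31 in Sod1KO GFP-. In tSC-like cells it was 0.454 and 0.293, and in mSC-like cells 0.0266 and 0.0288. Psmb9 over Psmb6 followed the same order in WT GFP+, with 0.758 in endothelial-like, 0.563 in macrophage-like, 0.200 in tSC-like and 0.0317 in mSC-like cells. Psmb10 over Psmb7 spread less, from 1.61 in endothelial-like to 0.162 in tenocyte-like cells of that library, with mSC-like cells at 0.251. Smooth muscle-like and tenocyte-like cells were near the mSC-like cells for Psmb8 over Psmb5, at 0.0364 and 0.0457 in WT GFP+.

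**Figure D2:**
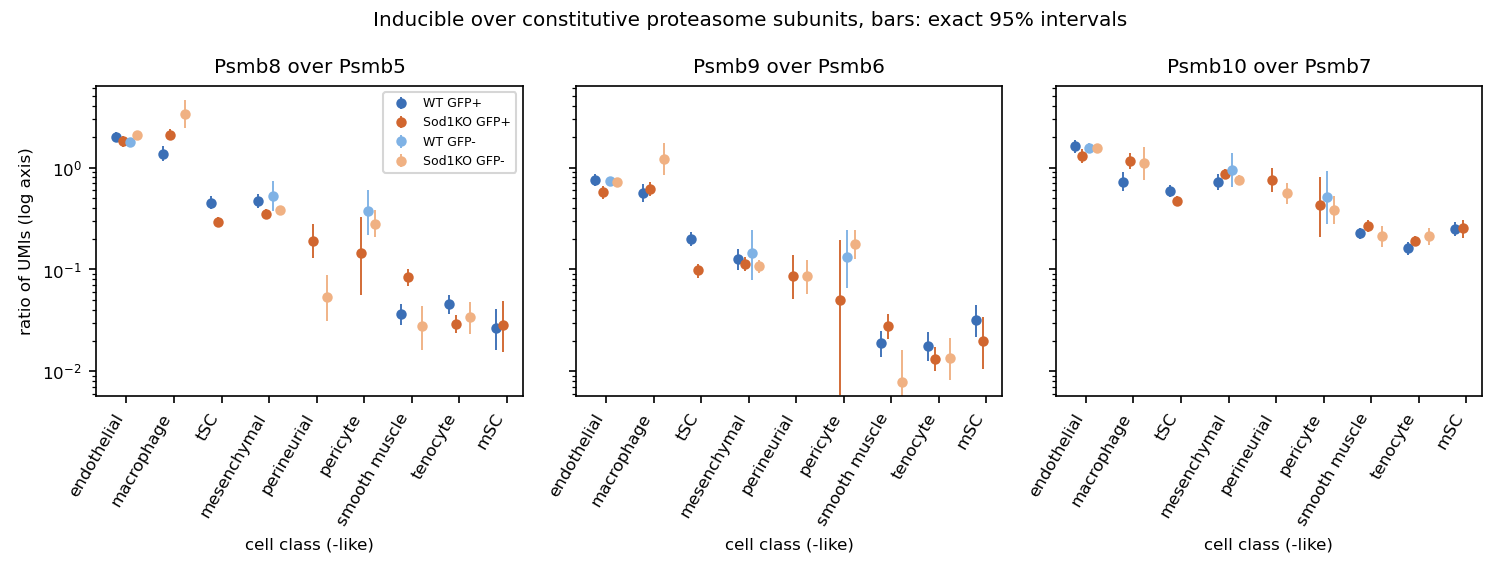
Ratio of UMIs of each inducible proteasome subunit to the constitutive subunit it replaces, on a log axis, by cell class and library. Endothelial-like and macrophage-like cells are at the top for Psmb8 over Psmb5, at 1.36 to 3.31, and for Psmb10 over Psmb7 macrophage-like cells of WT GFP+, at 0.727, lie among the mesenchymal-like cells, at 0.723 to 0.947.

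Among the signalling genes, Irf1, a transcription factor that many stimuli besides interferon induce, had the most even distribution. Irf1 stood at 649 CPM in mSC-like cells of WT GFP+, its highest class there, at 624 in endothelial-like, 455 in tSC-like, 408 in smooth muscle-like, 312 in mesenchymal-like and 308 in tenocyte-like cells, and at 130 in macrophage-like cells, its lowest. Irf7, which amplifies type I interferon responses, ran the opposite way in mSC-like cells, with 1 UMI in WT GFP+ and 2 in Sod1KO GFP+, both at or under the floor of 3 UMIs, against 52.7 to 72.1 CPM in endothelial-like cells of the 4 libraries. Nlrc5, the transactivator of MHC class I genes, was highest in tSC-like cells in both GFP+ libraries, at 152 CPM (143 to 162) in WT and 80.6 (75.4 to 86.1) in the Sod1KO-labelled library. Endothelial-like cells had 20.9 to 48.4 CPM of Nlrc5 over the 4 libraries. In WT GFP+, tSC-like cells were also the highest class for Tap1, Stat2, Irf9, Ifit2 and Rtp4, and in the Sod1KO-labelled library for none of these 5.

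Most effectors were concentrated in the endothelium, and a few in macrophage-like cells. Isg15, a ubiquitin-like modifier, stood at 455, 464, 500 and 530 CPM in endothelial-like cells of WT GFP+, Sod1KO GFP+, WT GFP- and Sod1KO GFP-, and its next highest level in any class and library was 156, in macrophage-like cells of Sod1KO GFP+. Rsad2, the antiviral enzyme viperin, was at 127 to 168 CPM in endothelial-like cells and had 0 UMIs among the 7033218 and 4403040 UMIs of mSC-like cells, under the floor of 3 UMIs. Ifih1, a sensor of long double-stranded RNA, was highest in macrophage-like cells, at 259, 416 and 290 CPM in the 3 libraries with that class, against 65.3 to 92.0 in endothelial-like cells. Ifi27l2a, another interferon-induced gene, was also highest there, at 602, 975 and 1296 CPM, and reached 294 to 489 CPM in mesenchymal-like cells. Ifitm2, which holds back virus entry at membranes, was highest in perineurial-like cells of Sod1KO GFP+, at 2081 CPM, against 1229 in endothelial-like cells of that library.

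The endothelial level was spread over many cells and was not even among endothelial clusters. A subset of 9 members that are low without interferon (Ifit1, Ifit2, Ifit3, Isg15, Rsad2, Usp18, Irf7, Oasl2 and Rtp4, the core genes below) was used to count cells. After thinning each cell to 2000 UMIs, a UMI in at least 3 of the 9 was found in 45 of 265 endothelial-like cells of WT GFP+ (16.98%, Clopper-Pearson 95% limits 12.7 to 22.1) and 104 of 586 of WT GFP- (17.7%), beside 48 of 235 in Sod1KO GFP+ (20.4%, 15.5 to 26.2) and 345 of 1541 in Sod1KO GFP- (22.4%, 20.3 to 24.6). Unthinned, the shares were 62.0%, 64.5%, 66.1% and 71.6% in that order. The thinned share of tSC-like cells was 2.87% (11 of 383) for the WT library and 1.48% (13 of 878) for the Sod1KO-labelled one. Among mSC-like cells, 1 of 1065 (WT) and 0 of 651 (Sod1KO-labelled) reached it, and the latter allows a share of up to 0.461%. In the endothelial-like cells of WT GFP+, 41 of 266 cells held 50% of the core UMIs and the highest single cell held 4.04%.

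Arterial endothelial cells carried more of the core genes than capillary cells in all 4 libraries. Cluster 9, led by Gja5, Sema3g and Edn1, which mark arteries, had a summed core level of 1378, 1516, 1582 and 2051 CPM in WT GFP+, Sod1KO GFP+, WT GFP- and Sod1KO GFP-. Cluster 1, led by Car4, Gpihbp1 and Aplnr, which mark capillaries, had 957, 995, 935 and 1009 CPM. Of the 33 members, 6 were more than 1.5-fold higher in cluster 9 in every library (Psmb8, Irf7, Ifit1, Ifit3, Oasl2 and Ifi27l2a) and 0 were lower, while 5.11% of the 6143 genes measured deeply enough in all 4 were higher and 4.92% lower by the same rule. Ifi27l2a was the most unequal, at 490 against 129 CPM in WT GFP+, 612 against 57.8 in Sod1KO GFP+, 298 against 74.5 in WT GFP- and 376 against 97.4 in Sod1KO GFP-. Irf7 stood at 89.0 against 42.1, 133 against 42.4, 106.1 against 46.8 and 142 against 54.7 CPM in the same order. Rsad2 was at 175 against 196 CPM in WT GFP+, 158 against 154 in Sod1KO GFP+ and 159.5 against 167 in WT GFP-, each with an interval that held 0, and at 223 against 161 in Sod1KO GFP- (log2 ratio 0.46, 0.36 to 0.57). H2-K1 was higher in cluster 9 with log2 ratios of 0.40, 0.69, 0.68 and 0.67, past 1.5-fold in 3 of the 4 libraries. A small cluster led by Sele, Ackr1 and Selp, genes of venules, had the least core expression of the endothelial clusters in WT GFP+ and Sod1KO GFP+, at 568 and 508 CPM.

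**Figure D3:**
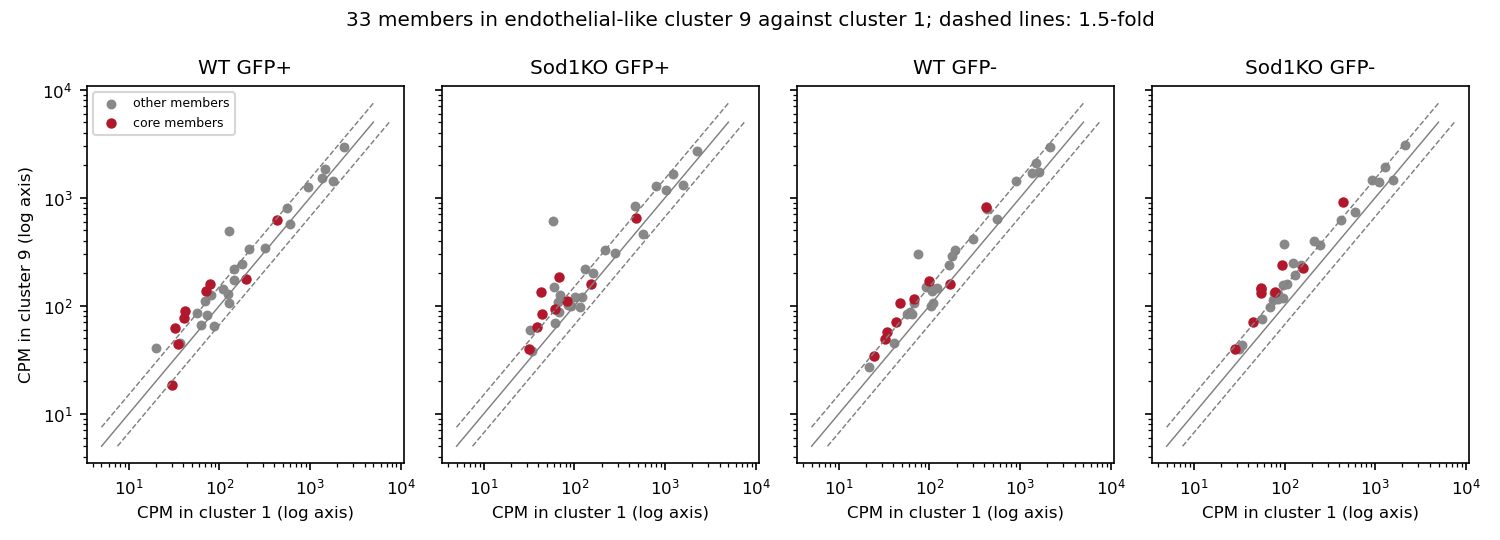
Level in CPM, on log axes, of each member in arterial cluster 9 against capillary cluster 1, with 1 panel per library. Ifi27l2a and Irf7 lie well above the line of equal levels in all 4 panels, and H2-K1 lies above it by log2 ratios of 0.40 to 0.69.

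Between genotypes, more members were past 1.5-fold in tSC-like cells than in any other class, and most of these were lower in the Sod1KO-labelled library. Of 33 members, 16 were more than 1.5-fold lower and 1, Ifi27l2a, was higher, where 12.8% of the 11802 genes with at least 50 UMIs over both libraries were lower and 9.39% higher. The median log2 ratio was −0.54 for the members and −0.03 for all genes tested. The interval lay below 0 for 28 members and above 0 for 1. Intervals were not counted over all genes, so these 2 counts have no share to be read against. The comparison rests on 388 WT and 885 Sod1KO cells.

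Signalling genes and transcription factors stood out among the roles, since all 6 were lower, beside 12.8% of all genes, with a median of −1.07. Irf1 was at 455 CPM in WT and 212 in the Sod1KO-labelled library, counted from 2826 against 2301 UMIs (log2 ratio −1.10, −1.18 to −1.02). Irf7 was at 15.6 and 6.53 CPM (−1.26), and Irf9, the DNA-binding partner of STAT2, at 59.7 and 29.0 (−1.04). Nlrc5 was at 152 and 80.6 CPM (−0.92). The ratio was −0.69 for Stat2, from 126 to 77.8 CPM, and −1.19 for Usp18, which removes ISG15 and restrains receptor signalling, from 51 and 39 UMIs.

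Of the 12 effectors, 7 were lower and Ifi27l2a higher, beside 12.8% and 9.39% of all genes. Rsad2 had the largest ratio of all members, at 11.3 CPM (70 UMIs) for WT and 2.85 CPM (31 UMIs) for the Sod1KO-labelled library, a log2 ratio of −1.98 (−2.64 to −1.35). Ifit1, which binds foreign RNA and blocks its translation, was at 31.2 and 12.7 CPM (−1.30, −1.62 to −0.98). Oasl2, of the oligoadenylate synthetase family, had 26.1 and 10.6 CPM (−1.30), and Rtp4, an antiviral chaperone of receptors, 108 and 50.9 (−1.08). Ifit2 (−0.80), Ifit3 (−0.88) and Ifih1 (−0.77) were lower as well. Isg15 differed less, at 70.7 and 55.1 CPM (−0.36), and so did Ifi35 (−0.48) and Xaf1 (−0.32). Bst2, which tethers budding virus, was at 70.5 and 78.7 CPM (0.16). Ifi27l2a went the other way, from 35.1 CPM in WT to 58.5, a log2 ratio of 0.74 (0.51 to 0.97).

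The MHC class I chains were not past 1.5-fold over all tSC-like cells. B2m was at 460 and 461 CPM (0.00), H2-K1 at 209 and 195 (−0.10) and H2-D1 at 509 and 415 (−0.29, −0.36 to −0.23). Within the tSC-like cluster 11, described below, all 3 were higher in the Sod1KO-labelled library with Poisson limits that did not overlap, H2-K1 at 206 and 251 CPM, H2-D1 at 505 and 610 and B2m at 441 and 544, while in cluster 10 B2m was lower, at 652 and 438. The 2 transporter chains were lower past 1.5-fold, Tap1 from 37.3 to 19.3 CPM (−0.95, −1.23 to −0.67) and Tap2 from 45.1 to 29.9 (−0.59). Psmb9, which shares its promoter region with Tap1, had 29.3 and 16.6 CPM (−0.82, −1.13 to −0.52) and was the only 1 of 5 proteasome members past 1.5-fold. Ifitm3 (−0.54), Gbp3 (−0.53) and Gbp2 (−0.46) were lower by less than 1.5-fold.

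**Figure D4:**
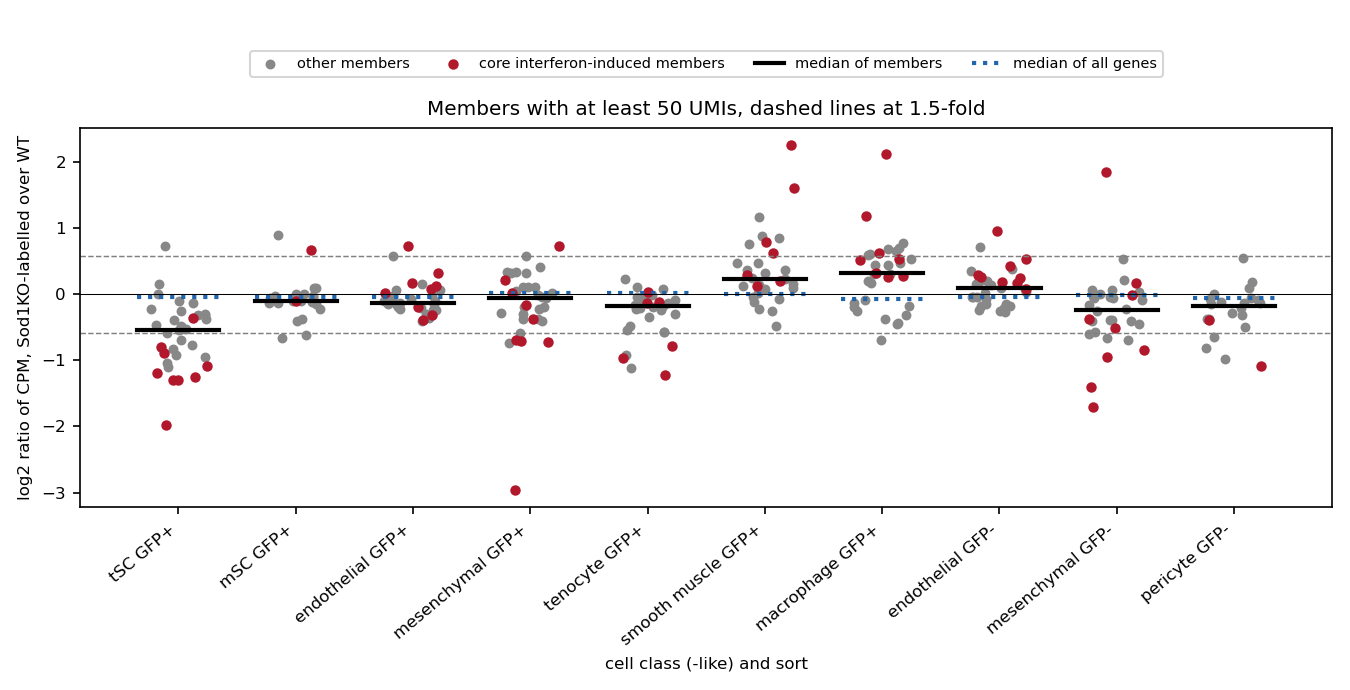
Log2 ratio of CPM, Sod1KO-labelled library over WT, for each member with at least 50 UMIs in each of the 10 comparisons of a class within a sort; red points are the core genes, dashed lines mark 1.5-fold, and the black and blue dotted marks are the medians of the members and of all genes. The members lie mostly below 0 in tSC-like cells and mostly above 0 in smooth muscle-like and macrophage-like cells.

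Other interferon genes were lower along with the members in tSC-like cells. Of 45 other interferon-stimulated genes, 30 were measured deeply enough, and 17 of these were lower and 1, Cxcl10, was higher. Over all genes 12.8% were lower and 9.39% higher. Sp100 had a log2 ratio of −1.88 and Slfn5 of −1.46. Of 10 interferon-gamma-induced GTPases tested, 7 were lower, among them Irgm1, an autophagy-linked GTPase, at 325 and 123 CPM (−1.40, −1.50 to −1.30) and Iigp1 at 38.0 and 12.4 (−1.61). The receptors differed less: Ifnar1 was at 31.5 and 31.1 CPM (−0.02), Ifnar2 at 204 and 174 (−0.23) and Ifngr1 at 55.2 and 40.4 (−0.45), and Il10rb, a receptor chain shared with interleukins, was the 1 of 8 receptor and kinase genes past 1.5-fold, at 89.2 and 48.5 (−0.88). Of the 9 constitutive proteasome genes 0 were lower and Psme4 was higher (0.63). None of these lists was counted within single clusters.

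The difference in tSC-like cells went together with a difference in which tSC-like clusters were present. Cluster 11, led by Bche, Ajap1 and Col20a1, held 317 of the 388 WT cells (81.7%) and 222 of the 885 cells in the Sod1KO-labelled library (25.1%). Cluster 10, led by Btc and Ngfr, held 30 and 545 cells. The summed core level was 353 and 314 CPM in cluster 11 and 235 and 135 CPM in cluster 10, in the order WT and Sod1KO, so the cluster that prevailed in the Sod1KO-labelled library had the lower level in both libraries. A small cluster 34, led by Gfra3 and Scn7a, had 497 and 370 CPM in 28 and 30 cells. Within cluster 11, only 3 members were lower (Irf1, Irf9 and Tap1) and Ifi27l2a was higher, with 6.66% of all genes lower and 2.97% higher, and the median of the members was −0.17. Irf1 stood there at 458 and 292 CPM, Tap1 at 36.8 and 22.1, Rsad2 at 12.0 and 8.03, and Ifit1 at 30.3 and 27.9. Within cluster 10, with 30 WT cells, 12 of 29 members were lower and 0 higher, where 16.6% and 17.7% of all genes were, and the median was −0.48.

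Macrophage markers other than Lyz2 were low in these cells. The lysozyme gene Lyz2 was at 4665 CPM in tSC-like cells of WT GFP+ and at 425 in the Sod1KO-labelled library, while the other macrophage markers together came to 5.47 and 9.11 CPM and C1qa to 0.161 and 1.38. In macrophage-like cells of WT GFP+, Lyz2 was at 9554 CPM and C1qa at 2211. Of 10 macrophage markers 8 and 9 had a UMI in tSC-like cells. The median depth of tSC-like cells was 12371 and 9542 UMIs, and Gm42418, which overlaps ribosomal RNA, took 2.02% and 4.19% of their UMIs. Its share was higher in the Sod1KO-labelled library in all compared classes. In mSC-like cells it was 3.02% and 5.70%, and in endothelial-like cells of GFP+ 3.19% and 5.31%. The part of Lyz2, other macrophage RNA, depth and Gm42418 in the result was not tested.

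**Figure D5:**
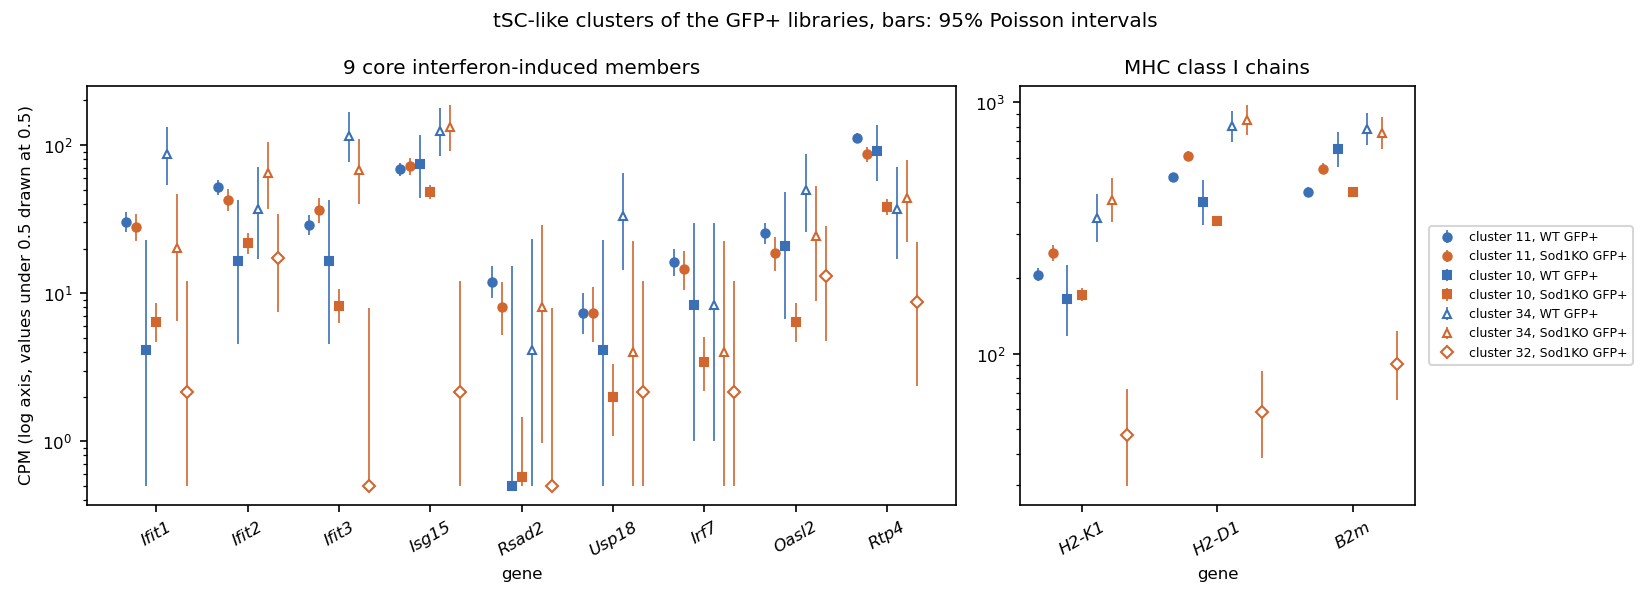
Level in CPM, on a log axis, of the 9 core genes and the 3 MHC class I chains in the tSC-like clusters 11, 10, 34 and 32 of WT GFP+ and Sod1KO GFP+, with 95% Poisson limits; values under 0.5 are drawn at 0.5. Core genes are lower in cluster 10 than in cluster 11 in both libraries for most genes, and cluster 32 has low MHC class I chains.

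In mSC-like cells, compared over 1071 WT and 657 Sod1KO cells, 22 members had enough UMIs. Isg15 and Gbp2 were higher and Irf1 and Ifi27l2a lower past 1.5-fold, against 3.7% and 4.39% of all genes. Irf1 was at 649 and 410 CPM, a log2 ratio of −0.66 (−0.74 to −0.58). Isg15 was at 15.9 and 25.4 CPM (0.68, 0.28 to 1.07). Gbp2, a GTPase that attacks vacuoles of pathogens, was at 5.12 and 9.54 CPM (0.90, 0.22 to 1.58), and for Ifi27l2a, at 5.55 and 3.63, the interval held 0. The clusters of the class went opposite ways for Irf1. In cluster 2 (877 and 495 cells) it was at 740.4 and 466 CPM, and with it Gbp2 and Isg15 were the members past 1.5-fold, beside 3.54% of all genes higher and 4.58% lower. In the shallower cluster 16 (194 and 162 cells), led by Ankfn1 and Epha6, Irf1 was the member higher, at 84.6 and 168 CPM, and Tapbp and H2-D1 were lower, beside 7.32% and 7.89%.

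Endothelial-like cells, where most members were highest, had few members past 1.5-fold between genotypes. Of 33 members, 2 were higher and 0 lower in GFP+ (266 and 236 cells), beside 4.7% and 3.91% of all genes, and again 2 were higher and 0 lower in GFP- (589 and 1544 cells), beside 10.6% and 9.2%. They were the same 2 genes, Nlrc5 and Ifit2, where 1.95% of the genes tested in both sorts were higher in both and 0.974% lower in both. Nlrc5 was at 32.2 and 48.4 CPM in WT GFP+ and Sod1KO GFP+, a log2 ratio of 0.59 (0.22 to 0.96), and at 20.9 and 34.4 CPM in WT GFP- and Sod1KO GFP- (0.72, 0.47 to 0.97). Ifit2, an RNA-binding partner of Ifit1 and Ifit3, was at 34.2 and 57.0 CPM in GFP+ (0.74, 0.39 to 1.09) and at 35.7 and 69.4 in GFP- (0.96, 0.77 to 1.15). Without clusters of mostly 1 library Nlrc5 was past 1.5-fold in neither sort, while Ifit2 was in both. Within cluster 1 alone, Ifit2 was past 1.5-fold in both sorts and Nlrc5 in GFP+, beside 5.39% of all genes higher in GFP+ and 10.4% in GFP-, and Ifi27l2a was lower in GFP+ and 0 members in GFP-, beside 5.7% and 6.04%. Over all cells of each class, Nlrc5 therefore differed in opposite directions in endothelial-like and tSC-like cells of the GFP+ libraries, with intervals on either side of 0. In tSC-like cells too, Nlrc5 was not past 1.5-fold without clusters of mostly 1 library, nor within cluster 11. Within cluster 10, with 30 WT cells, Nlrc5 was lower past 1.5-fold. The median of the members was −0.13 in GFP+ and 0.09 in GFP-. The core genes had a median of 0.09 in GFP+ and of 0.27 in GFP-, where the intervals of all 9 lay above 0. How many intervals of all genes lay above 0 was not counted. In GFP- the clusters present also differed. Cluster 31, with a summed core level of 844 CPM, held 20.9% of the class in WT and 2 cells in the Sod1KO-labelled library. Cluster 1 held 52.8% and 73.3%. The summed core level in WT and Sod1KO GFP- was 935 and 1009 CPM within cluster 1 and 1582 and 2051 within cluster 9. The part of cluster composition in the result was not tested. Outside the members, Oas2 was higher in both sorts (1.14 and 0.97), and Cd74, the invariant chain of MHC class II, was lower in both (−1.08 and −1.40).

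In smooth muscle-like cells of GFP+, compared over 616 and 475 cells, more members were higher than lower. Of 31 members tested, 8 were higher and 0 lower, against 7.1% and 2.66% of all genes, and the median was 0.24. The share of cluster 25, whose members summed to 5479 CPM against 1679 in cluster 3 of WT GFP+, was 9.90% of the class in WT and 17.1% in the Sod1KO-labelled library. Macrophage markers came to 12.4 and 31.9 CPM (10 and 9 of 10 with a UMI, C1qa at 0.519 and 0.831), Ptprc, a leukocyte marker, to 0.222 and 4.75 CPM, and Gm42418 took 1.49% and 3.63% of the UMIs, and the part of these in the result was not tested. Psmb8 was at 5.93 and 13.4 CPM (1.18, 0.75 to 1.61), Psmb9 at 3.71 and 6.29 (0.76) and Gbp2 at 11.3 and 20.5 (0.86). Ifit1 was at 1.78 CPM from 24 UMIs and 8.55 CPM from 72 UMIs (2.27, 1.58 to 3.00), and Ifit3 at 2.52 and 7.72 (1.62). Rtp4, Irf7 and Gbp3 were higher with log2 ratios of 0.63, 0.80 and 0.88, and the interval of Irf7 held 0. Single cells carried part of this, since 14 of the 24 Ifit1 UMIs in WT and 21 of the 72 in the Sod1KO-labelled library were in 1 cell each. Without these 1 or 2 cells, chosen for their core UMIs, Ifit1 was at 10 and 51 UMIs (3.03) and 6 members were higher. The other GTPases were higher too, 6 of 9 tested, Gbp5, Gbp6, Gbp7, Tgtp2, Ifi47 and Iigp1. Within cluster 3, the main contractile cluster, 3 members were higher (Psmb8, Gbp2 and Rsad2) and Stat2 lower, where 5.12% and 2.74% of all genes were, with a median of 0.02. Within cluster 25, led by Actg2, Ifit1 and Ifit3 were higher and Ifih1 lower, where 4.8% and 8.56% of all genes were, and its summed core level was 337 and 479 CPM.

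Macrophage-like cells of GFP+, a single cluster of 132 and 209 cells, showed 9 members higher and 1 lower of 32 tested, against 5.8% and 5.63% of all genes, with a median of 0.32. Gm42418, higher in the Sod1KO-labelled library in all compared classes, took 3.86% and 6.91% of their UMIs, and its part in the result was not tested. Ifi27l2a was at 602 and 975 CPM (0.70), Ifih1 at 259 and 416 (0.68), Bst2 at 139 and 210 (0.60) and Psmb8 at 132 and 227 (0.78). Ifit3 was at 3.26 CPM from 8 UMIs and 14.3 CPM from 44 UMIs (2.13, 1.03 to 3.43), and Ifit2 at 7.74 and 17.5 CPM (1.18). Irf7, Xaf1 and Ifi35 were higher with ratios of 0.63, 0.65 and 0.62. Without the cell with the most core UMIs in each library, 5 of the 9 were still past 1.5-fold (Ifih1, Xaf1, Ifi27l2a, Psmb8 and Ifit2), Irf7, Bst2 and Ifi35 were not, and Ifit3 fell under the minimum of UMIs. Nlrc5 was the 1 member lower, at 54.2 and 33.5 CPM (−0.69). The MHC class I chains went slightly down, H2-D1 from 1522 to 1232 CPM (−0.31) and B2m with a ratio of −0.13. Of 8 interferon-gamma-induced GTPases tested, 3 were lower (Gbp5, Igtp and Iigp1) and 0 higher.

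In mesenchymal-like cells the count of members depended on single cells. In GFP+, over 260 and 660 cells, 6 of 33 members were lower and 1 higher, against 5.17% and 7.39% of all genes, and with median-of-ratios scaling 5 were lower and 2 higher. Isg15 was at 22.7 and 37.6 CPM (0.73, 0.42 to 1.04), while Rsad2 was at 15.6 and 2.00 (−2.97, −3.79 to −2.22). Of the 81 Rsad2 UMIs in WT GFP+, 66 (81.5%) came from 1 cell, and that library's highest cell held 256 of its 858 core UMIs (29.8%). Without the highest cell of each library 2 members were lower and 1 higher, and Rsad2 had a ratio of −0.71, Ifit1 of 0.14, Usp18 of −0.53, Oasl2 of −0.40 and Isg15 of 1.17. H2-D1, at 507 and 337 CPM (−0.59), and Ifi27l2a, at 489 and 294 (−0.73), were the other members lower; Usp18 (−0.72), Ifit1 (−0.70) and Oasl2 (−0.69) made up the 6. The clusters also disagreed: in cluster 5, led by Myoc and Fst, 7 members were higher and 0 lower (5.78% and 3.87% of all genes), and the summed core level was 101 and 182 CPM, while in cluster 20, led by Pi16, 4 were lower and 1 higher (5.19% and 5.19%), with 269 and 161 CPM. In cluster 12, led by Smim41 and Saa1, which held 30.4% of the class in WT and 48.5% in the Sod1KO-labelled library, 6 were lower and 4 higher (10.1% and 10.6%), with 126 and 86.6 CPM.

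The GFP- mesenchymal-like cells, only 59 in WT and 692 in the Sod1KO-labelled library, gave 7 members lower and 1 higher of 32 tested, against 10.7% and 15.9% of all genes, and 5 lower and 2 higher with median-of-ratios scaling. Of the 59 WT cells, 25 (42.4%) were in cluster 37, led by Slc6a2 and Shcbp1l, which held 0 cells of Sod1KO GFP-, and most of the 692 (76.0%) were in cluster 5. Isg15 was at 116 and 35.5 CPM (−1.70), Psmb8 at 70.4 and 43.6 (−0.69), Psme1 at 137 and 90.5 (−0.60), Rtp4 at 37.7 and 19.6 (−0.94), Ifi35 at 51.6 and 32.7 (−0.66) and Rsad2 at 12.6 and 7.05 (−0.84). Ifit3 was at 72.9 and 27.6 CPM (−1.40), but 48 of its 58 WT UMIs (82.8%) were in 1 cell, and without the highest cell of each library its ratio was 0.86. Then 2 members were lower and 4 higher. Usp18 had 2 UMIs in WT and 101 in the Sod1KO-labelled library, a ratio of 1.86 (−0.03 to 4.92). Only Rsad2 was lower in both sorts and 0 members were higher in both, where 1.29% and 2.43% of the genes tested in both were. Without the highest cell of each library Rsad2 was past the rule in neither sort, with ratios of −0.71 and −0.54 and intervals that held 0.

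Tenocyte-like cells, with 602 and 1285 cells in GFP+, had 5 of 30 members lower and 0 higher, against 2.54% and 5.04% of all genes, all at low levels. Xaf1, a factor that promotes apoptosis, was at 13.4 and 6.23 CPM (−1.11), Irf7 at 3.78 and 1.61 (−1.23), Ifih1 at 4.14 and 2.19 (−0.92), Ifit1 at 3.15 and 1.84 (−0.78) and Isg15 at 2.26 and 1.16 (−0.96). Without the cell with the most core UMIs in each library, Isg15 had a ratio of −0.45 (−1.19 to 0.30) and Ifit1 of −1.36. Irf1, at 308 and 207 CPM, was lower by just under 1.5-fold in this class. Pericyte-like cells could be compared only in GFP-, over 52 and 209 cells, and 22 members had enough UMIs. Irf1 was at 275 and 176 CPM (−0.64), Irf9 at 39.7 and 22.6 (−0.82), Rsad2 at 43.2 and 20.4 (−1.08) and Ifi35 at 62.2 and 31.7 (−0.97), which made 4 lower and 0 higher where 9.41% and 9.04% of all genes were, and 3 lower and 1 higher with median-of-ratios scaling.

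Among the unnamed clusters compared in GFP+, clusters 7 and 4 had the most members past 1.5-fold. In cluster 7, where markers of perineurial and myelinating Schwann cells occurred together (314 WT and 323 Sod1KO cells), 8 of 33 members were higher in the Sod1KO-labelled library (Isg15, Bst2, Rsad2, Ifi27l2a, Rtp4, Psmb8, Ifit3 and Ifit1) and Irf1 was lower, beside 9.86% and 7.26% of all genes, and the summed core level was 98.0 and 187 CPM. In cluster 4, shallow cells led by Inmt and Gdf10 (346 and 446 cells), 6 of 27 members were higher (Ifih1, Isg15, Oasl2, Xaf1, Ifi27l2a and Ifit3) and 0 lower, beside 8.38% and 2.88% of all genes, with 132 and 234 CPM. Cluster 8 had 2 of 14 members higher and 0 lower, beside 10.1% and 16.1% of all genes. Cluster 21 had 0 of 4 higher and 0 lower, beside 8.4% and 13.1%. The part of single cells and of Gm42418 in these clusters was not tested.

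Across the 10 comparisons of named classes, the median of the members was above 0 in smooth muscle-like and macrophage-like cells of GFP+ and endothelial-like cells of GFP-, and below 0 in the other 7. These comparisons share libraries, so their directions are not independent of each other. Over whole libraries the ligands had few UMIs, and those of Ifnb1 were almost all in macrophage-like cells. Ifnb1, which encodes interferon beta, had 27 UMIs in 7 cells of WT GFP+, all macrophage-like, and 38 UMIs in 15 cells of Sod1KO GFP+, of which 37 were in macrophage-like cells, and 0 in both GFP- libraries. The macrophage-like cells of WT GFP+ and Sod1KO GFP+ held 2454994 and 3077207 UMIs of all genes. Ifng, the interferon gamma gene, had 7 UMIs in 3 cells of Sod1KO GFP+ and 2 in Sod1KO GFP-. Ifnk had 1 UMI in Sod1KO GFP+ and 2 in Sod1KO GFP-. The genes Ifna1, Ifna2, Ifna4, Ifna5, Ifne, Ifnl2 and Ifnl3 had 0 UMIs in every library.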

How the data were processed

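The authors deposited raw UMI counts for each gene in each cell from Cell Ranger (7.1.0 in the submitters' processing notes, beside mm10 and Seurat 4.30) from 10x 3′ libraries, before their removal of ambient RNA and doublets. Per the labels, each of the 4 groups has 1 library. Here cells with more than 200 genes and under 10% mitochondrial UMIs were kept, at an assumed doublet rate of 0.8% per 1000 barcodes the likeliest doublets were removed (27 to 366 per library), and cells were clustered together (2000 variable genes without interferon genes, 30 components, 20 neighbours, Leiden resolution 1, 38 clusters) with Python 3.11.15, numpy 2.4.6, scipy 1.17.1, scikit-learn 1.9.0, igraph 0.11.9 and leidenalg 0.10.2. A class name needed 3 markers above 20 CPM and 2 times the other clusters. UMIs were summed per class and library and compared in classes with at least 50 cells in both libraries, for genes with at least 50 UMIs over both. All members past 1.5-fold in a compared class were named. With 1 library per group no test was possible. Intervals are exact at 95%, and depth per class was 578825 to 30992940 UMIs. The ratios and their intervals were tested on simulated counts for tSC-like and macrophage-like cells of GFP+. These were Poisson counts drawn from pooled means, the same counting error that the intervals assume. UMIs concentrated in single cells were not simulated, so the run cannot show how the intervals hold for such genes. The counting of cells with several core genes was not tested that way. The members and lists were chosen with earlier results of these data known. Alternatives are in the closing section. The authors' clustering and ambient correction were not repeated.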

Additional observations from a re-analysis of the deposited data

Results flagged for a closer look

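In mesenchymal-like cells, Usp18 and Isg15 were on opposite sides in the 2 sorts. As a log2 ratio, Sod1KO over WT, the difference was −0.72 in GFP+ and 1.86 in GFP- for Usp18, and 0.73 in GFP+ and −1.7 in GFP- for Isg15. The difference between the sorts was not tested, and the GFP- value of Usp18 rests on 2 UMIs in WT.

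Unnamed cells held signal outside the comparisons. Cluster 22, of 32 to 61 shallow cells per library with 1 of 10 endothelial markers and with Ifit1 and Cxcl9 among its leading genes, summed to core levels of 795.3 (WT) and 1854 CPM (Sod1KO) among GFP+ cells and of 1255 (WT) and 1208 CPM (Sod1KO) among GFP- cells. Ifnb1 had 27 UMIs in WT GFP+ and 38 in Sod1KO GFP+, and Ifng had 7 in Sod1KO GFP+, each above the 3 UMIs that a count of 0 allows.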

How the results depend on the processing

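No paired analysis was possible because each group has 1 library and the labels give no replicate numbers. The spread of a main median was taken from the median lower and upper counting limits of single members, which is wide for a median over many members. Of 97 alternative values of the median of the members, 93 stayed within that spread, which says little about stability, and 4 moved. In tSC-like cells the median moved to −0.19 without clusters of mostly 1 library and to −0.17 within the largest shared cluster. In endothelial-like cells of GFP- it moved to 0.034 with the members in the clustering and to 0.023 within the largest shared cluster. A change of sign was to be counted only for a main median past 1.5-fold, and no main median was. The largest shared cluster and the removal of the highest cell per library were chosen after seeing the data. Of 214 counts of members past the fold, 55 moved by over 1.5 times. At a fold of 2, 4.86% of all genes were lower in tSC-like cells, 1.5% in mesenchymal-like cells of GFP+ and 3.25% in those of GFP-. In tenocyte-like cells 0.733% were lower and in pericyte-like cells 1.33%. In smooth muscle-like cells 2.44% were higher and in macrophage-like cells 2.21%. For settings other than a fold of 2 and single clusters, the share of all genes was not counted. In tSC-like cells the 16 lower members became 8 at a fold of 2 and 3 both without clusters of mostly 1 library (by construction, cluster 10 is then left out) and within the largest shared cluster, and numbered 15 or 16 under the other settings. The 6 lower mesenchymal-like members of GFP+ became 1 at a fold of 2, 3 by the mean of single-cell CPM and 0 in cluster 5. The 7 of GFP- became 2 at a fold of 2 and 4 with doublets kept. The count of 8 higher smooth muscle-like members was 3 at a fold of 2, 4 with a stricter cell filter (3 of them among the 8) and 3 within cluster 3 (2 among the 8). The count of 9 higher macrophage-like members was 2 at a fold of 2, 6 without the highest cell (5 of them among the 9) and 12 with median-of-ratios scaling, that of 5 lower tenocyte-like members 2 at a fold of 2, and that of 4 lower pericyte-like members 1 at a fold of 2, 2 with a stricter filter (Bst2 and Stat2, 0 of them among the 4) and 12 at a minimum of 10 UMIs. Isg15 in tenocyte-like cells was also not past the fold with doublets kept or ambient RNA subtracted. For changes whose cause the setting does not show by construction, the cause was not tested.

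Shares of cells with 3 core genes depended on depth by construction. Thinned to 1000 UMIs and not thinned, they were 0.258% and 37.6% in tSC-like cells of WT GFP+, 0.453% and 14.8% in tSC-like cells of Sod1KO GFP+, and in endothelial-like cells 7.52% and 62.0% in WT GFP+, 9.32% and 66.1% in Sod1KO GFP+, 6.45% and 64.5% in WT GFP-, and 8.48% and 71.6% in Sod1KO GFP-. Summed member levels in endothelial-like cells, with ambient RNA subtracted and as the mean of single-cell CPM, were 13202 and 12967 CPM in WT GFP+, 11811 and 12189 in Sod1KO GFP+, 12171 and 12584 in WT GFP-, and 12103 and 12239 in Sod1KO GFP-, and with ambient RNA subtracted 3015 in tSC-like cells of Sod1KO GFP+. The endothelial-like class stayed highest for 22 to 30 members under these settings. Without clusters of mostly 1 library, mesenchymal-like cells of GFP- were too few to give a value.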

Other observations

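Cluster 31, endothelial-like cells found almost only in WT GFP- (123 cells, against 2 in Sod1KO GFP-), had a summed core level of 844 CPM there.

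The tSC-like cluster 32 (13 and 88 cells) had a summed core level of 48 CPM and 197 CPM of the 3 MHC class I chains in Sod1KO GFP+, against 946 to 2018 CPM of the chains in the other tSC-like clusters. Among other genes in tSC-like cells, Hspa1a and Hspa1b, which encode heat shock proteins, had Sod1KO over WT log2 ratios of 1.21 and 1.51, Atf3 was higher (0.65), and Egr1 (−0.71) and Ier3 (−0.65) were lower. The receptor genes Ifnar1, Ifnar2, Ifngr2 and Il10rb lie on chromosome 16 within 1.15 to 1.33 Mb of Sod1 (GRCm38.p6).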
